A study of Mus musculus with 27 samples.

Results

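Embryoid bodies of 2 mouse induced pluripotent stem cell lines were compared after 11 days of differentiation. The 4F group held embryoid bodies of the 19BL line, reprogrammed with 4 transcription factors, and the 3F group those of the H9 line, reprogrammed with 3. Arrays were taken by their labels, line and day together, which gave 3 arrays of 4F and 3 of 3F, 6 of the 27 in the series. The other 21 arrays held the same lines at day 0 and day 5 and R1 embryonic stem cells at all 3 days, with 3 biological replicates in each of 9 groups. Both iPS lines had been kept on mitomycin-inactivated feeder cells with leukemia inhibitory factor (LIF), and the aggregates were then cultured in medium with 20% fetal bovine serum and no LIF. The factors are not named in the sources used here. Each group is 1 cell line, so that the number of factors and the line cannot be told apart.

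An embryoid body is a floating aggregate of pluripotent cells that differentiate without added directing factors. As LIF is withdrawn, the pluripotency network led by Oct4, Sox2 and Nanog is shut down, and the cells pass through an epiblast-like state to primitive streak, mesoderm and endoderm. Mesoderm then gives beating heart muscle, epicardium, endothelium, primitive red blood cells and a stroma of fibroblast-like and smooth muscle cells. Genes of the germ line that are on in pluripotent cells are normally silenced in the same period, many of them by DNA methylation of CpG-rich promoters. The series title concerns the capacity of iPS lines to form heart cells, and this comparison sets the 2 iPS lines side by side at the latest day.

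Values are deposited log2 signals, and a change is the 4F mean minus the 3F mean on that scale, followed after ± by its standard error from limma. A gene was called, and is said to have risen or fallen, at a Benjamini-Hochberg adjusted p under 0.05 over all 18193 genes and a change of at least 2-fold. Arrays of a probe set compare samples, so no gene's signal is set against another gene's. In these bulk samples, fewer cells of a type and less RNA per cell cannot be told apart.

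A difference in RNA control probes ran along with the groups. The control index is the mean, over Actb and Gapdh, of the signal of the control probe set at the 3′ end of the transcript minus that at the 5′ end, and it grows as fewer of the labelled copies reach the 5′ end. It was 2.89, 2.74 and 2.44 in the 4F arrays, against 1.58, 1.76 and 1.31 in the 3F arrays. All 4F arrays lay above all 3F arrays. The means were 2.69 ± 0.23 in 4F and 1.55 ± 0.23 in 3F (SD, n = 3 each), a difference of 1.14, and the exact two-sided permutation test gave p = 0.1, the smallest that 3 arrays against 3 allow. The index was 1.31 ± 0.11 in 4F and 1.09 ± 0.07 in 3F at day 0, and 1.62 ± 0.08 in 4F and 1.10 ± 0.08 in 3F at day 5. In R1 at day 11 it was 1.94 ± 0.20. The values that carry the results below are therefore also given from a fit of all 27 arrays that has the index as a covariate, written as "with the index". Group and index move together at day 11, and with only these 6 arrays their parts cannot be told apart. In the fit of all 27 arrays each group has its own mean, so the index effect comes from differences within groups. The SD of the index within groups ran from 0.07 (3F at day 0) to 0.34 (R1 at day 5), under the difference of 1.14. A value with the index carries that effect over a wider range. A call that held or was lost with it does not separate group from index.

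**Figure D1:**
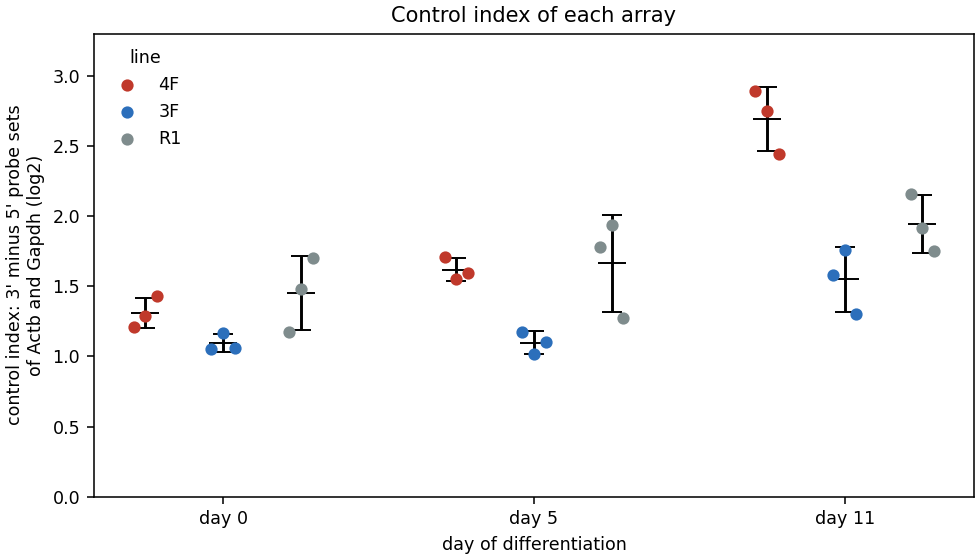
Control index in log2 units for each of the 27 arrays, by day and line, with mean and SD (n = 3). At day 11 the 4F arrays lie between 2.44 and 2.89 and the 3F arrays between 1.31 and 1.76.

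Some arrays also stood apart within their group. Correlations between arrays over all genes were 0.981 to 0.992 within 4F, 0.963 to 0.979 within 3F and 0.920 to 0.976 between the groups. Replicate 3 of 4F lay at least 1 log2 unit above both other 4F arrays at 300 genes, against 11 and 7 genes for replicates 1 and 2. Replicate 1 of 3F lay at least 1 unit above both other 3F arrays at 675 genes and at least 1 unit below them at 638. Of the 675, 601 had a mean signal under the median of all genes.

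Of 18193 genes, 931 were higher and 893 were lower in 4F, 1824 in all, which is 10.0% of the genes tested (5.12% higher and 4.91% lower). The groups did not overlap at 29.6% of all genes and at 1658 of the 1824 called genes. The median change of all genes was -0.12. With the index, 785 genes were called higher and 320 lower (4.31% and 1.76%), and 362 of the 1824 stayed called in the same direction, 219 higher and 143 lower. Leaving out 1 array at a time, 976 of the 1824 stayed called throughout, and 267 stayed called both with the index and in every such fit. Without 3F replicate 1 the split became 564 higher and 1172 lower, and without 4F replicate 3 it became 1087 and 1273. With only the 6 arrays in the fit, 840 genes were called, and with the index in that fit limma called 0 genes, with 962 at an unadjusted p under 0.05. The fit of 6 arrays with the index was added after the data had been seen.

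**Figure D2:**
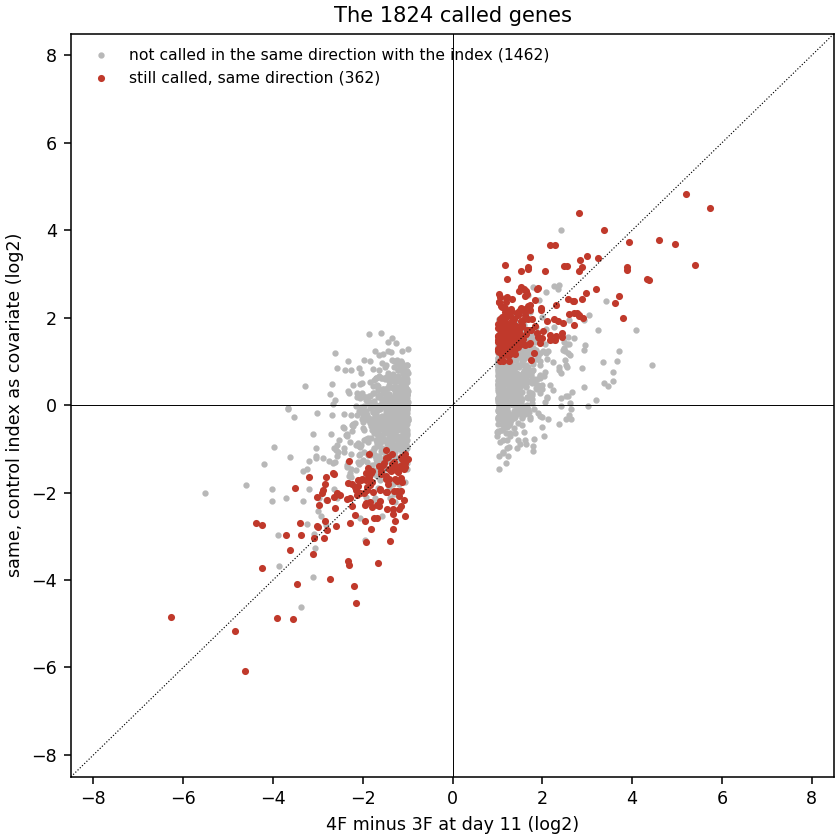
Change of each of the 1824 called genes without (x axis) and with (y axis) the control index as a covariate, both 4F minus 3F at day 11 on the log2 scale. Red points, 362 genes, were called in the same direction in both fits, and grey points were not.

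Of the 12 genes that rose most in 4F, Dppa2, Zfp42, Fgf4 and Tdgf1 were in the list of pluripotency genes and Mael in that of germ line genes. Dppa2, a DNA-binding protein of pluripotent cells that acts with Dppa4, had signals of 10.83, 11.52 and 11.29 in 4F, against 5.44, 5.79 and 5.16 in 3F. The lowest 4F array lay far above the highest 3F array, and the change of 5.75 ± 0.39 (53.6-fold, limma adjusted p = 1.52e-09) was 4.50 with the index (adjusted p = 0.0012). Zfp42 encodes Rex1, a zinc finger protein used as a marker of undifferentiated stem cells. Its signals were 11.55, 11.85 and 10.88 in 4F, against 6.23, 6.72 and 5.12 in 3F, without overlap. It rose by 5.40 ± 0.47 (42.2-fold, limma adjusted p = 5.09e-08) and by 3.20 with the index (adjusted p = 0.014). Fgf4, a growth factor secreted by pluripotent cells, was at 8.79, 9.92 and 8.76 in 4F, against 4.07, 4.69 and 4.94 in 3F. All its 4F arrays were higher, by 4.59 ± 0.50 on average and by 3.78 with the index (limma adjusted p = 0.021). Another probe set of Fgf4 gave -0.48.

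Tdgf1, the Nodal co-receptor Cripto, behaved differently when the index entered. It was at 12.02, 12.42 and 11.09 in 4F and at 6.52, 8.03 and 7.68 in 3F, a rise of 4.43 ± 0.65 that was 0.92 with the index (limma adjusted p = 0.548). Of 25 measured pluripotency genes, 15 rose and 0 fell, when 5.12% of all genes rose and 4.91% fell. Their median change was 1.86, against -0.12 over all genes. The core factors were among them. Pou5f1, which encodes Oct4, was at 10.14, 10.50 and 9.08 in 4F and at 7.23, 7.70 and 7.03 in 3F (2.59 ± 0.52). Nanog was at 9.03, 9.54 and 9.002 in 4F and at 4.69, 6.36 and 6.28 in 3F (3.42 ± 0.48), and Sox2 at 9.25, 10.27 and 9.07 in 4F and at 6.31, 6.93 and 6.23 in 3F (3.04 ± 0.44). None of these 3 factors overlapped between the groups. With the index the 3 calls were lost, with changes of -0.22 for Pou5f1, 2.39 for Nanog and 2.06 for Sox2 (limma adjusted p = 0.874, 0.106 and 0.123). Dppa2, Dppa4, Fgf4 and Zfp42 were the 4 of 15 that stayed called with the index. Esrrb, Klf4 and Gdf3, also in the list, were not called, with Esrrb at 0.02 ± 0.22 and Klf4 at 0.06 ± 0.31.

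In the list for the BMP and TGF-beta pathways, 22 genes were measured, and 3 rose and 2 fell, when 5.12% of all genes rose and 4.91% fell. Nothing is read from that count for the pathways as a group. Nodal, the TGF-beta family ligand that patterns the epiblast, was at 10.01, 10.79 and 9.49 in 4F, against 7.40, 7.92 and 7.23 in 3F. It rose by 2.58 ± 0.45, and its inhibitors Lefty2 and Lefty1 rose by 2.62 ± 0.45 and 1.202 ± 0.37. The Lefty1 call was lost without 4F replicate 2, 3F replicate 2 or 3F replicate 3. The ligand genes Tgfb3 and Tgfb1 fell by 1.97 ± 0.32 and 1.36 ± 0.31. None of these 5 calls held with the index, where Nodal was at 0.22 (limma adjusted p = 0.858). Otx2, a transcription factor of the epiblast and forebrain, rose by 2.54 ± 0.69 and was at -0.32 with the index. Its call was lost without 4F replicate 2. Of 9 measured primed epiblast genes 2 rose and 0 fell, and neither rise held with the index. The epiblast ligand gene Fgf5 was not called, with 4.05, 4.66 and 4.47 in 4F and 5.15, 4.69 and 4.91 in 3F. Of 14 genes of epithelial junctions and keratins 3 rose and 0 fell, with a median of 0.34 that was -0.88 with the index. E-cadherin (Cdh1) rose by 1.37 ± 0.37 and the adhesion gene Epcam by 1.46 ± 0.40. With the index they were at -0.30 and -0.79, and both calls were lost without 4F replicate 2.

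**Figure D3:**
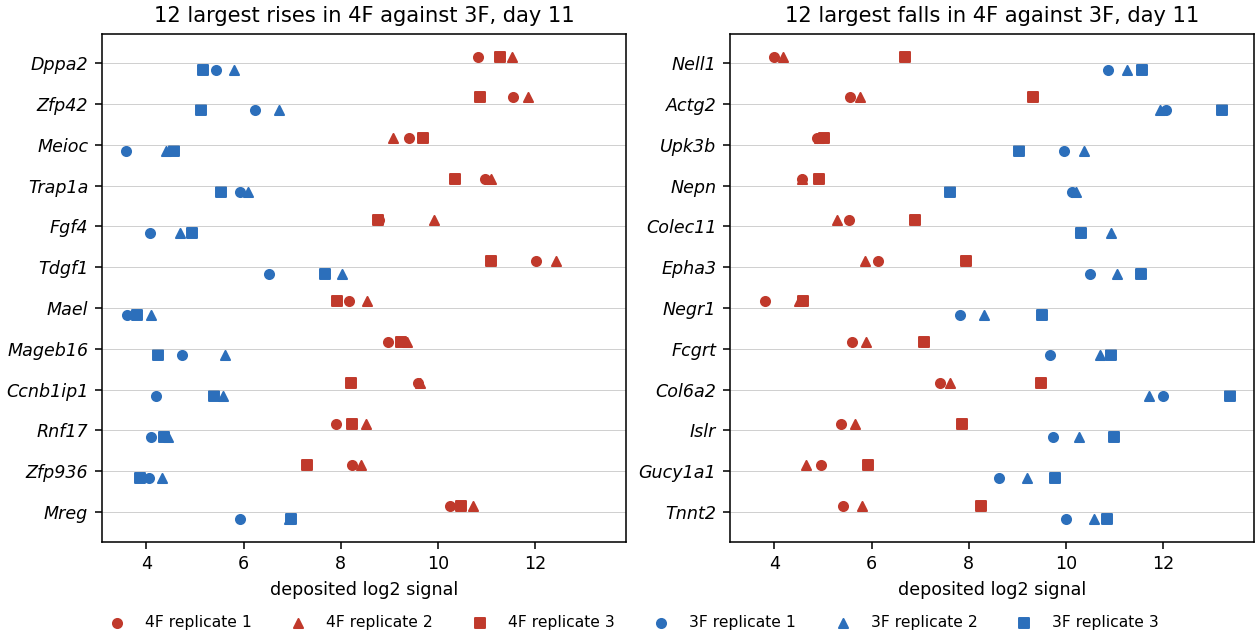
Deposited log2 signals of the 6 arrays for the 12 largest rises and the 12 largest falls, taken from called genes without overlap between 4F and 3F. Red symbols are 4F and blue symbols 3F, and the square of 4F replicate 3 lies nearer to 3F than the other 4F symbols for falls such as Actg2 (9.33) and Tnnt2 (8.25).

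Several germ line genes were also higher. Of 14 measured members 6 rose and 0 fell, when 5.12% of all genes rose and 4.91% fell. The others were not called. Of the 6, 4 (Mael, Ddx4, Tex19.1 and Stk31) stayed called with the index. Mael, a protein of the piRNA pathway that silences transposons in germ cells, was at 8.16, 8.54 and 7.93 in 4F, against 3.60, 4.10 and 3.80 in 3F. Every 4F array was above every 3F array by more than 3 log2 units. The change was 4.38 ± 0.33 (20.8-fold, limma adjusted p = 4.93e-09) and 2.86 with the index (adjusted p = 0.00338). Ddx4, the RNA helicase Vasa, which marks germ cells, was at 7.43, 7.38 and 7.63 in 4F and at 3.55, 4.24 and 3.82 in 3F. It rose by 3.61 ± 0.28 and by 2.34 with the index (limma adjusted p = 0.00457). Sycp3, a component of the meiotic chromosome axis, was at 7.75, 7.80 and 6.64 in 4F and at 3.56, 3.93 and 3.71 in 3F, a rise of 3.66 ± 0.43 that was 1.02 with the index (limma adjusted p = 0.211).

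Further genes expressed in germ cells stood among the 12 largest rises. Meioc, which germ cells need to stay in meiotic prophase, was at 9.40, 9.07 and 9.69 in 4F, against 3.57, 4.40 and 4.57 in 3F. It rose by 5.20 ± 0.36 (36.8-fold, limma adjusted p = 1.73e-09) and by 4.83 with the index. Rnf17, a Tudor domain protein of male germ cells, was at 7.91, 8.51 and 8.23 in 4F and at 4.09, 4.44 and 4.36 in 3F. It rose by 3.92 ± 0.25 and by 3.73 with the index (limma adjusted p = 0.000258), and another probe set of it did not differ (0.00). Trap1a and Mageb16 are X-linked genes, and Mageb16 belongs to the MAGE family, many of whose members are expressed in testis. They rose by 4.95 ± 0.35 and 4.33 ± 0.45, and by 3.68 and 2.88 with the index. The meiotic E3 ligase gene Ccnb1ip1 rose by 4.10 ± 0.48 but was at 1.72 with the index (limma adjusted p = 0.148). Zfp936, a zinc finger gene, and Mreg, which encodes melanoregulin, rose by 3.89 ± 0.24 and 3.88 ± 0.32. Both stayed called with the index, at 3.08 and 3.16.

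The promoters of 4 called germ line genes are shown because they are the sequences from which these transcripts start. They are taken from RefSeq (GRCm38.p6) and run from 250 bases before to 50 bases after the start of the gene. The sequences are written 5′ to 3′ on the strand of the gene, with the E-box CACGTG in capitals.
Mael (chr1:166238695-166238994, minus strand): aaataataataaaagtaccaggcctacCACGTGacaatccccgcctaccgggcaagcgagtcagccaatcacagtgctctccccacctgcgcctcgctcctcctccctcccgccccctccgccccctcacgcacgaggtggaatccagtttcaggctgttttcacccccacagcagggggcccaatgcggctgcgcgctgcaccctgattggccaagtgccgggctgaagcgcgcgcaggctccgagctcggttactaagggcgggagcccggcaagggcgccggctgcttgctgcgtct
Ddx4 (chr13:112652261-112652560, minus strand): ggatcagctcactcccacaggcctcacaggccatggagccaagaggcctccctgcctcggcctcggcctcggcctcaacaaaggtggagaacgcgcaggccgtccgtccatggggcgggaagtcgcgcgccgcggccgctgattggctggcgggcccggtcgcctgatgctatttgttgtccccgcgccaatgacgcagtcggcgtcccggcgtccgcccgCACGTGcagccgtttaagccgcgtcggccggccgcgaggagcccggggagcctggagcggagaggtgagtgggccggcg
Sycp3 (chr10:88459337-88459636, plus strand): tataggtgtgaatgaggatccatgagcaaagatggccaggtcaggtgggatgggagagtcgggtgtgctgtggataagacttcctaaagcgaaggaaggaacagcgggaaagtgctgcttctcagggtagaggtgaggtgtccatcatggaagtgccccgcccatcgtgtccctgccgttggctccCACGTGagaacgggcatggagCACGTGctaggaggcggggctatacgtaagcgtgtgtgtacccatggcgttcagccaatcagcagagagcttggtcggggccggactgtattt
Stk31 (chr6:49395289-49395588, plus strand): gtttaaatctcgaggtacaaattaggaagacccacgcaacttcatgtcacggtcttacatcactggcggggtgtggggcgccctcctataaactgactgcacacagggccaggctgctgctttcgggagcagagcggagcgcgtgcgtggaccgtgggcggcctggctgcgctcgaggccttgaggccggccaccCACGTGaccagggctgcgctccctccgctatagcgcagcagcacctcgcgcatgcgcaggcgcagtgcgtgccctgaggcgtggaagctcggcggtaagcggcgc
CACGTG reads the same on both strands. It occurs in the promoters of 8.09% of the 27025 genes in that table and in 8 of the 13 germ line members that matched it. These 8 include Mael, Ddx4, Sycp3 and Stk31, which rose, and also Hormad1, Mov10l1, Sycp1 and Taf7l, which were not called. Counted from the start of the gene, the motif begins at base -223 in Mael, at -29 in Ddx4, at -64 and -43 in Sycp3 and at -55 in Stk31. The 4 promoters hold 24, 38, 15 and 29 CpG dinucleotides. CpG was not counted over all promoters, so these counts have no background, and DNA methylation was not measured. A match is a description of the letters and not a binding site.

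The same lists were also measured at the earlier days. At day 0, 5 of the 25 pluripotency genes were higher in 4F and 1 was lower, and 2 of the 14 germ line genes were higher and 0 lower, when 0.885% of all genes were higher and 1.09% lower. At day 5, 17 of the 25 and 6 of the 14 were higher in 4F and 0 were lower, against 2.91% of all genes higher and 4.57% lower. Dppa2 was at 13.54, 13.53 and 13.58 in 4F and at 13.34, 13.49 and 13.14 in 3F at day 0. At day 5 it was at 12.58, 12.64 and 11.66 in 4F and at 8.66, 7.66 and 7.23 in 3F. In both lines the signal was lower at each later day, and the lines separated from day 5 on. Mael was at 8.56, 8.90 and 9.10 in 4F and at 7.52, 8.22 and 7.73 in 3F at day 0, and at 9.66, 9.30 and 8.32 in 4F and 3.86, 3.85 and 3.69 in 3F at day 5. R1, the embryonic stem cell line, had 4.14, 4.41 and 3.88 for Mael at day 11, near the 3F signals. For Dppa2 it had 8.23, 7.75 and 6.64, between 4F and 3F.

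**Figure D4:**
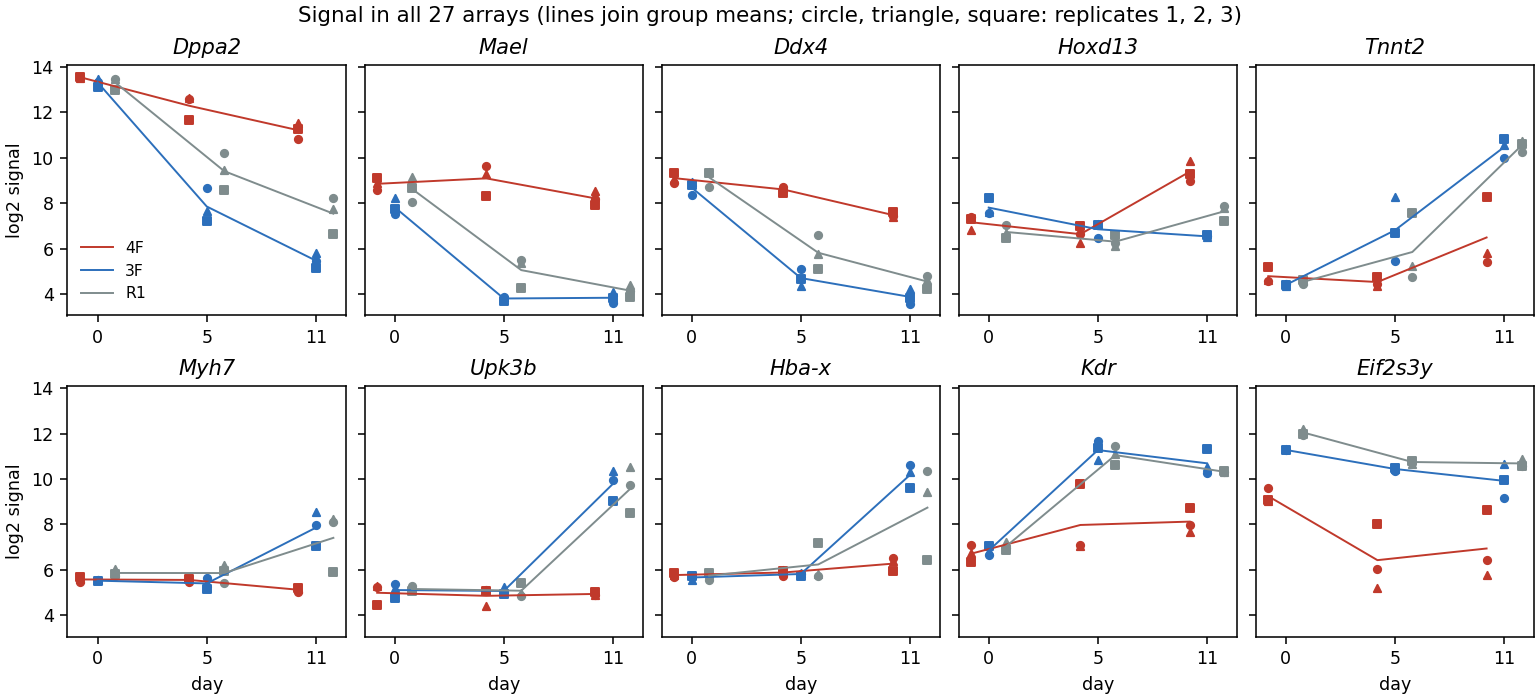
Deposited log2 signals of 10 genes in all 27 arrays by day, with lines joining the means of 4F (red), 3F (blue) and R1 (grey) and a marker for each replicate. The day 11 signals of Dppa2, Mael and Ddx4 in 4F stay above 7, and those of Tnnt2, Myh7, Upk3b and Hba-x rise by day 11 in 3F.

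The difference at day 11 was tested against the difference at day 0 in the same fit. It differed at 1167 genes, 620 in the positive and 547 in the negative direction (6.41% of genes, 3.41% and 3.01% by direction). With the index 794 were positive and 300 negative, 1094 in all, and 410 of the 1167 were still called. Among pluripotency genes 11 were positive and 1, Esrrb, was negative, and among germ line genes 5 were positive and 1, Mov10l1, was negative. Dppa2 differed by 5.52 ± 0.56 between the days (limma adjusted p = 2.39e-06) and Ddx4 by 3.19 ± 0.40 (adjusted p = 2.65e-05). With the index these were 4.51 and 2.16. Of the 931 genes higher in 4F at day 11, 52 were also higher at day 0 (5.59% of the day 11 genes and 32.3% of the day 0 genes) and 204 at day 5 (21.9% and 38.6%). Of the 893 lower genes, 50 were lower at day 0 (5.60% and 25.1%) and 235 at day 5 (26.3% and 28.3%). At day 0, 1.98% of genes were called and at day 5, 7.48%.

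The 12 largest falls were in genes of varied function. Nell1, a secreted protein of bone and cartilage formation, was at 3.99, 4.17 and 6.69 in 4F, against 10.86, 11.25 and 11.57 in 3F. Replicate 3 of 4F was higher than the other 4F arrays but well below 3F, and the change was -6.27 ± 0.40 (77.4-fold, limma adjusted p = 5.47e-10) and -4.86 with the index. Another probe set of Nell1 gave 0.04. Actg2, the gamma actin of smooth muscle, was at 5.55, 5.76 and 9.33 in 4F and at 12.06, 11.93 and 13.21 in 3F. It fell by 5.52 ± 0.64, with -2.01 and adjusted p = 0.162 with the index in limma. Epha3, an ephrin receptor, Negr1, a neuronal adhesion protein, and Fcgrt, the neonatal Fc receptor, fell by 4.39 ± 0.36, 4.24 ± 0.27 and 4.24 ± 0.33. All 3 stayed called with the index. Colec11, a secreted collectin, Islr, a protein of stromal cells, and Gucy1a1, a subunit of the nitric oxide receptor, fell by 4.59 ± 0.66, 4.03 ± 0.43 and 4.02 ± 0.47. These 3 calls were lost with the index, at -1.84, -2.20 and -1.91.

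Among heart muscle genes, 5 of 10 thin filament and 4 of 10 thick filament genes fell and 0 rose, when 5.12% of all genes rose and 4.91% fell. In the Z-disc and the calcium handling lists 2 of 13 genes each fell and 0 rose. Nothing is read from those small counts for these 2 lists as groups. Of 13 genes of heart muscle energy supply 2 rose and 1 fell, with Cox7a1, a subunit of cytochrome c oxidase, at 2.13 ± 0.42 and the fatty acid carrier Fabp3 at 1.63 ± 0.27. With the index these were at -0.32 and 1.53, and neither was called. Cardiac troponin T (Tnnt2) was at 5.40, 5.81 and 8.25 in 4F, against 9.996, 10.58 and 10.84 in 3F. Replicate 3 of 4F lay between the other 4F arrays and 3F, and the groups did not overlap. Tnnt2 fell by 3.98 ± 0.65 (15.8-fold, limma adjusted p = 0.000115), with -0.96 and adjusted p = 0.585 with the index, and another of its probe sets gave -0.28. Cardiac actin (Actc1) was at 6.42, 6.56 and 8.76 in 4F and at 10.83, 11.08 and 9.96 in 3F, and it fell by 3.38 ± 0.76. The slow troponin I gene of the embryonic heart, Tnni1, was at 8.28, 7.95 and 9.73 in 4F and at 11.80, 12.70 and 11.45 in 3F, and it fell by 3.33 ± 0.45. Troponin C (Tnnc1) fell by 1.73 ± 0.52, a call that was lost without 4F replicate 2 or without 3F replicate 2. No thin filament call held with the index, where Actc1 was at -4.62 (limma adjusted p = 0.0544) and Tnni1 at -2.19.

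Thick filament genes differed in that respect. Myh7, the beta myosin heavy chain of the embryonic and slow-twitch muscle, was at 5.02, 5.14 and 5.20 in 4F, against 7.98, 8.53 and 7.06 in 3F. The 4F arrays lay within 0.2 log2 units of each other, below their day 0 signals of 5.48, 5.58 and 5.66. Myh7 fell by 2.74 ± 0.40 (6.67-fold, limma adjusted p = 3.02e-05) and by 3.98 with the index (adjusted p = 0.00338). Cardiac myosin-binding protein C (Mybpc3) was at 6.20, 6.67 and 6.68 in 4F and at 8.65, 8.35 and 8.09 in 3F. It fell by 1.85 ± 0.21 and by 1.83 with the index. Myl2, the ventricular light chain, was at 4.72, 4.67 and 4.86 in 4F and at 7.58, 8.08 and 5.03 in 3F, and 3F replicate 3 was near the 4F arrays. Its fall of 2.15 ± 0.68 was lost when any of 4 single arrays was left out (4F replicates 1 and 2, 3F replicates 1 and 2), though it was called with the index (-4.53). In all, 4 of 10 thick filament genes fell and 0 rose, and with the index 5 were lower. Myl7, the atrial light chain, was not called (-1.48 ± 0.72, limma adjusted p = 0.119) and was lower with the index (-4.67, adjusted p = 0.0181). Myh6, the alpha myosin heavy chain, was at -1.80 ± 0.72 (limma adjusted p = 0.0633).

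The promoters of Actc1, Mybpc3 and the embryonic globin gene Hba-x are shown for the elements that muscle and red cell factors are known to bind, from the same RefSeq table and over the same span. In Actc1 the capitals mark a CArG box, the element bound by serum response factor. In Mybpc3 they mark a MEF2 site, and in Hba-x the GATA-type motif TGATAA, searched on both strands.
Actc1 (chr2:114052826-114053125, minus strand): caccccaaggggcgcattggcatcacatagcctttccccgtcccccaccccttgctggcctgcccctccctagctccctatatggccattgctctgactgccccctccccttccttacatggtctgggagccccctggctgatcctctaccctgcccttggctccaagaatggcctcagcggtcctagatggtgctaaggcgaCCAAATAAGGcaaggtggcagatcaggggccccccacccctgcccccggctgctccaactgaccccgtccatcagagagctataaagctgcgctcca
Mybpc3 (chr2:91117894-91118193, plus strand): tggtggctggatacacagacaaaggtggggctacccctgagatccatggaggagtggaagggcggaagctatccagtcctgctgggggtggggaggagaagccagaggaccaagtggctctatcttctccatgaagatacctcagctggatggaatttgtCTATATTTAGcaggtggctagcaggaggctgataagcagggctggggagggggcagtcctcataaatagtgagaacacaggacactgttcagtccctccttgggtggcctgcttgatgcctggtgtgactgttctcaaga
Hba-x (chr11:32276350-32276649, plus strand): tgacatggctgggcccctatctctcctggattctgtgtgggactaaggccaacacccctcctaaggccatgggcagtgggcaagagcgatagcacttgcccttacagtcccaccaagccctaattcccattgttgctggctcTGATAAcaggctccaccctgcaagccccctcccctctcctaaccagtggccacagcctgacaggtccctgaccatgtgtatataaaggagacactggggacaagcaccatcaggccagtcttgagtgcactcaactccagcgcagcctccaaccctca
A CArG box lies in the promoters of 1.81% of genes, in 2 of 10 thin filament genes and in 3 of 9 thick filament genes that matched the table. A MEF2 site lies in 0.636% of all, in 0 of 10 and in 2 of 9. TGATAA lies in 10.4% of all and in 5 of 10 erythroid genes.

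Of 19 cardiac transcription factors 2 rose and 3 fell, when 5.12% of all genes rose and 4.91% fell. Nothing is read from that count for these factors as a group, and none of the 5 calls held with the index. Isl1, a marker of the second heart field and of other progenitors, was at 8.72, 8.62 and 8.44 in 4F, against 6.74, 7.07 and 6.28 in 3F, and rose by 1.90 ± 0.37, with 1.12 with the index. Tbx2, a repressor of chamber genes, rose by 1.19 ± 0.40, and that call was lost when any of 3 single arrays was left out. Mef2c, a muscle transcription factor, fell by 1.88 ± 0.32, and Smarcd3, the heart subunit of a chromatin remodelling complex, fell by 1.23 ± 0.27. With the index they were at -1.15 and -0.21. Gata6 fell by 1.11 ± 0.37, again lost without any of 3 single arrays. Hand2 was at -1.14 ± 0.45 and Tbx20 at -1.37 ± 0.66 (limma adjusted p = 0.0576 and 0.118), and Gata4 and Nkx2-5 were not called either, at -1.03 ± 0.41 and -0.31 ± 0.25.

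Natriuretic peptide genes add a further readout of heart muscle. Of 5 genes 3 fell, when 4.91% of all genes fell. Corin, the protease that activates the peptides, fell by 3.05 ± 0.42. The clearance receptor gene Npr3 fell by 2.86 ± 0.42 and the peptide gene Nppb by 1.29 ± 0.33. Npr3 and Nppb stayed called with the index, at -3.03 and -2.64, and Corin did not (-1.16). Nppb was lost without 3F replicate 2. Nppa, the atrial peptide gene, was at 5.55, 5.30 and 5.34 in 4F and at 6.61, 6.33 and 5.91 in 3F. All 4F arrays were below all 3F arrays, but its change of -0.89 ± 0.13 was under 2-fold.

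Several genes of mesothelium and epicardium, the cell layer that covers the heart, were lower in 4F. Upk3b, a uroplakin that marks mesothelium, was at 4.89, 4.91 and 5.02 in 4F, against 9.96, 10.38 and 9.03 in 3F. It fell by 4.85 ± 0.36 (28.9-fold, limma adjusted p = 4.93e-09) and by 5.18 with the index (adjusted p = 0.000424). In 4F its signal at day 11 was no higher than at day 0 (5.23, 5.29 and 4.45). Of 10 epicardial and mesothelial genes 5 fell and 0 rose, when 4.91% of all genes fell and 5.12% rose. With the index 2 were lower, Upk3b and Upk1b, and 1 was called higher. Gpm6a, another member, was not called without the index but went the other way without overlap. It was at 4.40, 4.59 and 5.23 in 4F and at 4.19, 4.35 and 3.87 in 3F. The transcription factor genes Tcf21 and Wt1, which are used to mark epicardium, fell by 3.25 ± 0.52 and 1.71 ± 0.24, and with the index were at -2.73 and -0.80. Bnc1, a zinc finger gene of mesothelium, fell by 3.07 ± 0.53 and was at -3.28 with the index. Nepn, a small leucine-rich proteoglycan, was at 4.58, 4.57 and 4.92 in 4F and at 10.12, 10.21 and 7.61 in 3F. It fell by 4.62 ± 0.60 and by 6.08 with the index (limma adjusted p = 0.00415).

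Erythroid and endothelial genes included several that were lower in 4F. Slc4a1, the band 3 anion exchanger of red cells, was at 5.40, 5.91 and 5.82 in 4F, against 8.69, 8.64 and 9.08 in 3F. The change of -3.09 ± 0.16 (8.52-fold, limma adjusted p = 3.85e-11) was -3.04 with the index (adjusted p = 4.29e-05). R1 at day 11 had 6.19, 6.00 and 5.48 and lay beside 4F here. Hba-x, the embryonic zeta globin gene whose promoter is printed above, was at 6.51, 6.37 and 5.93 in 4F and at 10.62, 10.31 and 9.62 in 3F, and fell by 3.91 ± 0.57 and by 4.86 with the index. Of 13 erythroid genes 7 fell and 0 rose, when 4.91% of all genes fell and 5.12% rose. Slc4a1, Hba-x and Alas2, the first enzyme of heme synthesis in red cells, stayed called with the index. Hbb-y, an embryonic beta-type globin gene, was at 12.09, 11.55 and 10.17 in 4F and at 13.99, 14.35 and 14.29 in 3F. Its fall of 2.94 ± 0.89 was lost without 4F replicate 3. Hbb-bh1, another embryonic beta-type globin gene, was not called. It was at 12.52, 11.79 and 9.89 in 4F and at 12.67, 13.29 and 10.39 in 3F, and the groups overlapped.

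Of 20 endothelial genes 7 fell and 0 rose, when 4.91% of all genes fell and 5.12% rose. Kdr, the VEGF receptor of endothelium and its progenitors, was at 7.97, 7.69 and 8.71 in 4F, against 10.25, 10.51 and 11.32 in 3F. It fell by 2.57 ± 0.47, with -2.12 and adjusted p = 0.156 with the index in limma. Tek, the angiopoietin receptor, fell by 3.53 ± 0.58, Cd34 by 3.19 ± 0.41 and the tight junction gene Cldn5 by 2.34 ± 0.38. With the index Tek was at -0.26 and Cd34 at -1.92. Cldn5 and the receptor gene Tie1 stayed called with the index, at -3.55 and -1.35, though Tie1 was lost without 3F replicate 1. Of the leukocyte markers, Ptprc, the pan-leukocyte gene for CD45, was at 4.18, 4.18 and 4.89 in 4F and at 4.17, 5.00 and 4.13 in 3F, while R1 at day 11 had 8.22, 8.79 and 5.94. Of 17 macrophage and leukocyte genes 2, the lysozymes Lyz1 and Lyz2, fell in 4F, by 2.82 ± 0.74 and 1.72 ± 0.45, and neither call held with the index. Of all genes 4.91% were lower, so that 2 of 17 is not read as a result about leukocytes. Of 7 megakaryocyte and platelet genes 1 rose and 1 fell. Lyz1 was lost without 4F replicate 2.

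For stromal matrix genes the fits with and without the index gave different results. Of 15 measured genes for fibrillar collagens and stromal matrix 11 fell and 0 rose, with a median of -2.04. Of all genes 4.91% fell and 5.12% rose. With the index 0 were called and the median was 0.74, the opposite sign. The list was also lower in 4F at day 0, with a median of -1.31 and 2 members called lower. At day 5 the median was -0.10, with 3 called lower. The difference of differences between day 11 and day 0 was negative at 2 of the 15. Lumican (Lum), a collagen-binding proteoglycan, was at 9.64, 9.57 and 11.46 in 4F, against 13.51, 14.01 and 14.05 in 3F. It fell by 3.63 ± 0.50, and Dcn, which encodes decorin, by 3.70 ± 0.41. With the index they were at -1.18 and -2.13 and not called. The collagen VI genes Col6a2, Col6a1 and Col6a3 fell by 4.197 ± 0.55, 3.66 ± 0.58 and 3.66 ± 0.56, and with the index were at -1.35, -0.07 and -0.10. Postn, periostin, fell by 2.62 ± 0.71 and was at 1.204 with the index. Replicate 3 of 4F had the highest signal of the 4F arrays for each of these 6 genes, as for Actg2. It also had the lowest control index of the 4F arrays. In 3F and R1 at day 11 replicate 3 was likewise the highest array for Col6a1, Col6a2, Col6a3 and Actg2. For Dcn it was the highest in 3F but not in R1. The control index was also lowest in replicate 3 of 3F (1.31) and of R1 (1.75) at day 11. Of 10 smooth muscle genes 4 fell, when 4.91% of all genes fell. The median of the list was -0.92 at day 11 and -0.77 at day 0. Calponin (Cnn1) fell by 2.05 ± 0.31 and Tagln by 1.53 ± 0.38. None of the 4 calls held with the index, where Cnn1 and Tagln were at -1.31 and -0.53.

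**Figure D5:**
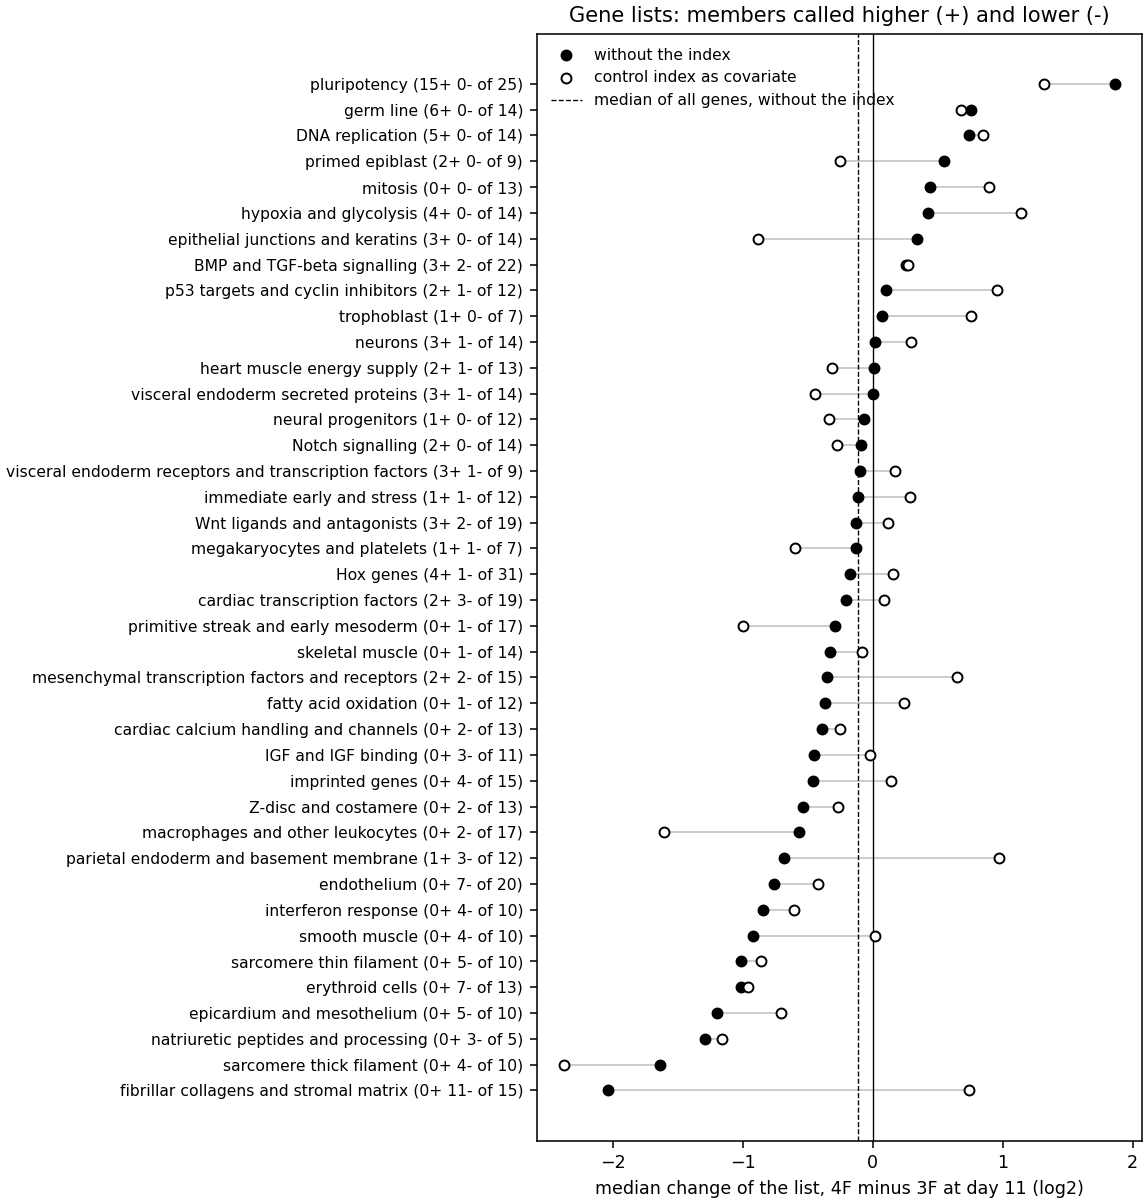
Median change of the measured members of each gene list, 4F minus 3F at day 11 (log2), without the control index (filled) and with it as a covariate (open). Labels give the members called higher and lower without the index. Fibrillar collagens and stromal matrix lie at -2.04 and 0.74, and germ line genes at 0.76 and 0.68.

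Some genes outside the pluripotent state were higher in 4F. Hoxd13, the most 5′ gene of the HoxD cluster, which patterns the posterior end of the body and the limbs, was at 8.96, 9.88 and 9.31 in 4F, against 6.54, 6.49 and 6.58 in 3F. All 4F arrays were above all 3F arrays, and R1 at day 11 averaged 7.64. Hoxd13 rose by 2.85 ± 0.25 (7.19-fold, limma adjusted p = 6.02e-08) and by 3.32 with the index (adjusted p = 0.00071), and another probe set gave -0.31. Of 31 Hox genes 4 rose and 1 fell, when 5.12% of all genes rose and 4.91% fell, and nothing is read from that count for the Hox genes as a group. Hoxd10 and Hoxc10 rose by 1.46 ± 0.31 and 1.04 ± 0.30 and stayed called with the index, although Hoxc10 was lost without 3F replicate 1 or 4F replicate 3. Hoxa9 rose by 2.42 ± 0.68, a call lost without 3F replicate 1, and the more anterior gene Hoxb2 fell by 1.64 ± 0.45. With the index Hoxa9 was at 4.01 and Hoxb2 at -0.27, and neither was called. Zic1, a zinc finger factor of neural and dorsal tissues, was at 6.71, 7.19 and 7.61 in 4F and at 4.30, 4.03 and 4.75 in 3F. It rose by 2.81 ± 0.35 and by 4.39 with the index, as the only member called among 12 neural progenitor genes.

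Visceral endoderm is the absorptive outer layer of embryoid bodies. Of 9 receptor and transcription factor genes 3 rose and 1 fell, when 5.12% of all genes rose and 4.91% fell. Amn and Cubn encode the partners of the vitamin B12 receptor of this layer, and Amn was at 9.09, 9.03 and 9.59 in 4F against 6.39, 6.53 and 5.97 in 3F. Amn rose by 2.94 ± 0.37, Cubn by 2.37 ± 0.46 and the endocytic receptor gene Lrp2 by 1.19 ± 0.31. None of these rises held with the index, where they were at 1.38, 2.74 and 1.49. At day 0, 2 of the 9 had also been higher in 4F, against 0.885% of all genes. Amn was then at 8.17, 8.64 and 9.23 in 4F and at 6.79, 7.38 and 7.08 in 3F. Cubn was at 6.86, 6.93 and 7.46 in 4F and at 5.48, 5.33 and 5.95 in 3F at that day. The difference of differences was called at 0 of the 9. Of 14 secreted proteins of this layer 3 rose, including the apolipoproteins Apoc2 (2.55 ± 0.31, with the index 1.41) and Apob (1.41 ± 0.32, with the index 0.18), and 1, alpha-fetoprotein (Afp), fell by 1.34 ± 0.38. Afp and the endoderm factor Foxa1, which fell by 1.40 ± 0.39, stayed called with the index, at -2.82 and -3.10. The calls of Apob and Afp were each lost without 1 array of 3F, replicate 3 for Apob and replicate 2 for Afp.

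Of 14 DNA replication genes 5 rose and 0 fell, when 5.12% of all genes rose and 4.91% fell. Of 13 mitosis genes limma called 0, with 8 at an unadjusted p under 0.05. Rrm2, a subunit of ribonucleotide reductase, was at 12.86, 13.01 and 13.15 in 4F, against 11.63, 11.83 and 12.15 in 3F, without overlap. It rose by 1.14 ± 0.14 and by 1.54 with the index, while Ccne1, cyclin E1, rose by 1.35 ± 0.25 and was at 0.58 with the index. Of 12 p53 targets and cyclin inhibitors 2 rose and 1 fell, when 5.12% of all genes rose and 4.91% fell. Nothing is read from that count for the list as a group. Mdm2, the p53 antagonist and p53 target, was at 12.55, 12.32 and 12.45 in 4F and at 10.96, 11.19 and 11.01 in 3F. It rose by 1.39 ± 0.13 (limma adjusted p = 1.23e-07) and by 1.17 with the index. Cdkn1c, which encodes the cyclin-dependent kinase inhibitor p57, was at 9.87, 10.33 and 11.54 in 4F and at 11.79, 12.19 and 12.72 in 3F. It fell by 1.66 ± 0.38, with -0.35 with the index. Of 14 hypoxia and glycolysis genes 4 rose and 0 fell, with the oxygen sensor gene Egln3 at 1.90 ± 0.31 and the vasodilator peptide gene Adm at 1.52 ± 0.30. With the index these were at 2.67 and 2.70, and 6 genes of that list were called higher.

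Imprinted genes and secreted signals fell or were split. Of 15 imprinted genes 4 fell and 0 rose, when 4.91% of all genes fell and 5.12% rose. The neuronal gene Nnat was at 7.21, 7.24 and 8.11 in 4F, against 9.80, 10.37 and 10.22 in 3F, and fell by 2.61 ± 0.26 and by 2.36 with the index. Rian, a maternally expressed noncoding RNA, fell by 1.92 ± 0.29 and by 2.25 with the index. The growth inhibitor Grb10 fell by 2.64 ± 0.31 and the IGF2 receptor gene Igf2r by 2.30 ± 0.42, and with the index they were at -0.98 and 0.28. Among 19 Wnt ligands and antagonists 3 rose and 2 fell, when 5.12% of all genes rose and 4.91% fell. Nothing is read from that count for the Wnt genes as a group. Wnt2, a ligand of the early heart and lung mesoderm, was at 7.86, 7.67 and 8.95 in 4F and at 10.42, 11.11 and 11.36 in 3F and fell by 2.80 ± 0.42, with -2.85 with the index. The Wnt antagonist Dkk1 rose by 2.51 ± 0.72 and was at 1.04 with the index.

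Interferon-stimulated genes, which cells switch on against viruses, differed between the days. Of 10 measured genes 4 fell at day 11 and 0 rose, when 4.91% of all genes fell and 5.12% rose. Rsad2, an antiviral enzyme, was at 6.74, 6.39 and 6.67 in 4F, against 7.99, 7.58 and 8.47 in 3F, and it fell by 1.41 ± 0.21. Ifitm3 and Irgm1 fell by 2.16 ± 0.38 and 1.75 ± 0.34 and were at -0.92 and -0.58 with the index, and neither held with the index, where Ifitm1 alone of the 4 was still called. At day 0, 5 of the 10 had been higher in 4F, against 0.885% of all genes. The difference of differences was negative at 9 of 10, against 3.01% of all genes. Ifit1, which binds foreign RNA, was not called at day 11 (-0.75 ± 0.41) but was 4.16 higher in 4F at day 0. Its promoter is shown for the response element of interferon-stimulated genes, with each match in capitals. The pattern was TTTC, any 2 bases and TTTC again, searched on both strands.
Ifit1 (chr19:34640639-34640938, plus strand): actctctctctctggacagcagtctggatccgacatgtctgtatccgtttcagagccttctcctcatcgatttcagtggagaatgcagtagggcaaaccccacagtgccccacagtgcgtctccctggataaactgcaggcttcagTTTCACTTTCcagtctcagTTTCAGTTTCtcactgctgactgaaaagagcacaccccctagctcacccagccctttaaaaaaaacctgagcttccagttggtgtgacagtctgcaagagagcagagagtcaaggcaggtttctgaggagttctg
The pattern lies in the promoters of 3.99% of genes and in 7 of the 9 interferon response members that matched the table.

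Of 3 measured Y-linked genes 2 fell in 4F, Eif2s3y and Uty, and Kdm5d was not called (-0.39 ± 0.10). Eif2s3y, a translation factor gene on the Y chromosome, was at 6.41, 5.78 and 8.63 in 4F, against 9.16, 10.67 and 9.94 in 3F. Uty, a Y-linked histone demethylase gene, was at 3.94, 4.00 and 4.88 in 4F and at 6.19, 7.99 and 7.63 in 3F. Replicate 3 was the highest 4F array for both. They fell by 2.98 ± 0.56 and 3.00 ± 0.37, and with the index were at -2.13 (limma adjusted p = 0.222) and -2.78 (adjusted p = 0.0237). At day 0 they had also been lower in 4F, with 9.61, 9.04 and 9.08 for Eif2s3y in 4F and 11.26, 11.32 and 11.27 in 3F. At day 5 replicate 3 was likewise apart, with 6.03, 5.22 and 8.03 for Eif2s3y in 4F. At that day the mesoderm receptor gene Aplnr was at 4.57, 4.63 and 11.27 in 4F, against 12.52, 12.41 and 12.36 in 3F. Replicate 3 of 4F thus held both the higher Y-linked signal and the higher mesoderm signal at day 5. At day 11 it held the higher stromal and Tnnt2 signals within 4F. For Col6a1 replicate 3 was also the highest day 11 array in 3F (13.29, against 11.97 and 11.75) and in R1 (13.11, against 11.19 and 11.83). The part of these replicate differences in the results was not tested. Xist, the X-inactivation RNA, was at 7.96, 7.70 and 6.63 in 4F and at 6.51, 5.65 and 5.57 in 3F, a rise of 1.52 ± 0.30 that was 0.45 with the index.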

How the data were processed

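Expression was measured on Affymetrix arrays of 45101 probe sets in 27 samples, of which the 3 4F and 3 3F arrays at day 11 were compared. The authors deposited log2 signals made with RMA, per the submitters' processing notes, with no version given. RMA subtracts background, normalizes by quantiles and summarises probes, so that totals are equalised and depth does not apply. The number of arrays limits the precision. Array medians ran from 5.91 to 6.10, and no 2 arrays were identical.

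Probe sets with 1 gene symbol (34945, against 932 with several and 9160 with none) were kept, and for each of 18193 genes the probe set of highest average signal over the 27 arrays was used. Symbols came from the platform annotation. limma 3.58.1 in R 4.3.3 fitted the 9 groups over all 27 arrays, with lmFit and eBayes, and Benjamini-Hochberg adjustment over all genes. Calls needed an adjusted p below 0.05 together with a 2-fold difference.

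The members and the 42 gene lists were chosen with earlier results of these data known. Named genes were the 12 largest rises and 12 largest falls among called genes without overlap or provisional names, up to 6 members of each list by size of change, a set of genes chosen by name, and the 6 largest differences between days each way. Esrrb, Klf4, Gdf3, Mov10l1 and other genes outside this rule were named after their values were seen. The labels call the samples biological replicates. Alternatives covered normalization, filters, probe sets, thresholds, array weights, single arrays left out, a replicate block and the control index. Promoters came from a RefSeq table (GRCm38.p6), and motifs were found by exact search. Figures were drawn with matplotlib 3.10.9.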

Additional observations from a re-analysis of the deposited data

Results flagged for a closer look

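The difference between 4F and 3F at day 11 was set against their difference at day 0 in the same limma fit, and it differed at 1167 genes by a test of the difference itself. The 6 largest positive differences of differences were 5.52 for Dppa2, 4.94 for Zfp42, 4.33 for Fgf4, 4.25 for Trap1a, 4.08 for Tdgf1 and 4.06 for Mageb16. In each of these genes the gap between 4F and 3F was larger at day 11 than at day 0. The 6 largest negative ones were -6.53 for Nell1, -4.91 for Ifit1, -4.80 for Rtp4, -4.73 for Upk3b, -4.58 for Nepn and -4.57 for Dcn. Ifit1 and Rtp4, both interferon-stimulated, were higher in 4F at day 0, by 4.16 and 4.04, and at day 11 were at -0.75 and -0.76. With the control index as a covariate 1094 genes differed, 410 of them among the 1167. The 12 named genes kept their direction, and Tdgf1 was the 1 that lost its call, at 1.23 with the index (limma adjusted p = 0.419).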

How the results depend on the processing

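The count of 1824 genes at day 11 moved to 5545 with no minimum change, 3651 over all probe sets, 840 with only the arrays compared, 1105 with the control index and 0 with the index and only the arrays compared, where 962 genes had an unadjusted p under 0.05 in limma. The 1167 differences between day 11 and day 0 moved to 1800 with no minimum change, 596 at an adjusted p under 0.01, 2087 over all probe sets, 725 with treat against 1.2-fold and 246 with the index and only the arrays compared. The called members of each gene list, 158 in sum, became 64 with the index. Array weights gave 801 higher and 1178 lower genes, and averaging the probe sets of each gene gave 737 and 639. Leaving out 1 array gave 1477 to 2360 genes at day 11, 849 to 1639 for the difference between days and 131 to 180 called members of each gene list in sum. Without 3F replicate 2 the 1167 became 1639.

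With the index 9 named genes turned sign and lost their call, namely Pou5f1 (-0.22), Otx2 (-0.32), Myom1 (0.072), Postn (1.204), Cdh1 (-0.30), Epcam (-0.79), Tyms (-0.23), Igf2r (0.28) and Cox7a1 (-0.32). Besides these 9, 63 of the 126 kept their direction but lost their call, and 2 gained a call. The remaining 52 kept their direction and side of the threshold. The index grows with the groups, and the cause of these changes was not tested. With only the arrays compared 25 of the 126 lost their call.

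Whether replicate numbers pair the samples could not be decided, because the correlations were few and differed between the numbers. Same-numbered arrays correlated at 0.10, -0.11 and 0.33 for numbers 1, 2 and 3. The highest correlation with an array of another number was 0.26, 0.10 and -0.15. The same-number correlation was thus the higher for number 3 only. A replicate block gave 1838 genes at day 11 with all arrays, against 1824 without it. With only the arrays compared it gave 1452, against 840 without it. For the difference between days it gave 1228 and 840, against 1167 and 812 without it. The called members of each gene list were 165 and 148 with the block.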
